A study of Arabidopsis thaliana with 12 samples.

Results

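The mitochondrion-encoded genes of Arabidopsis thaliana roots were followed across 3 lines and 2 sulfate supplies. They were taken as the probe sets annotated to exactly 1 gene of the mitochondrial genome, which gave 16 genes, read by 23 of the 22810 probe sets on the array. No mitochondrial probe set differed between groups at an adjusted p of 0.05 in any of the 8 comparisons or in the test over all 6 groups. The brighter members nevertheless varied strongly from array to array, and replicate arrays of 2 groups stood far apart.

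The parental line, P, is Columbia transformed with a T-DNA in which the SULTR1;2 promoter, that of a root sulfate transporter, drives GFP. The lines slim1-1 and slim1-2 were isolated from it as mutants in which the GFP signal responds weakly to sulfur limitation, so that every group carries the transgene. SLIM1, also called EIL3, is known as a transcription factor of the sulfur limitation response. Roots came from plants grown for 10 days on vertical agar, with 1500 µM MgSO4 added in S1500 and 15 µM in S15, where MgCl2 stood in for the rest. Agar contributed about 10 µM of residual sulfate to all media. The 6 groups, P-S1500, P-S15, slim1-1-S1500, slim1-1-S15, slim1-2-S1500 and slim1-2-S15, had 2 arrays each, 12 in all. The titles call them biological replicates and do not say how plants were pooled, so p-values measure the spread between these arrays. With 2 arrays a group, precision is limited by their number.

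The plant mitochondrial genome retains a small set of genes of the respiratory chain, of cytochrome c maturation and of the organelle's own ribosomes, whereas most mitochondrial proteins are nuclear-encoded and imported. Its transcripts are processed heavily after transcription: introns are spliced, some of them in trans, and many cytidines are edited to uridines. Mitochondrial RNA levels therefore reflect genome copy number, transcription and RNA stability together. In RNA from whole roots, fewer cells of a type and less RNA per cell cannot be told apart.

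Complex I, the NADH dehydrogenase that feeds electrons into the chain, held 15 of the 23 probe sets and 8 of the 16 genes. These were nad1 with 7 probe sets, nad5 with 2, and nad2, nad4, nad4L, nad6, nad7 and nad9 with 1 each. Complex IV, the cytochrome c oxidase that reduces oxygen, was represented by cox1 and cox2. Cytochrome c maturation, the attachment of heme to c-type cytochromes, was represented by ccb382, ccb203, ccb206 and ccb452, which RefSeq (assembly TAIR10.1) names ccmFN1, ccmFN2, ccmB and ccmFC. The remaining members were matR, which encodes an intron maturase, and orfX, named mttB in RefSeq and related to the bacterial TatC protein translocase. All 16 genes matched that assembly's mitochondrial genome by symbol or synonym. In its gene order, ccmFC, nad4 and mttB follow one another, at places 16, 17 and 18 of the 33 named protein-coding genes, and cox1 lies apart at place 10.

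The apocytochrome b gene cob, the oxidase gene cox3, the ATP synthase genes atp1 and atp9 and the ribosomal protein genes were annotated only in probe sets shared with another gene. There were 12 such probe sets, 2 of them for nad1. In 11 of these the other gene was a chromosome 2 locus, where a nuclear copy of mitochondrial DNA lies. They are therefore not members, and 8 of them passed the filter on low signals. The annotation does not say whether other members could also hybridise with RNA of that copy. Among the members, 5 probe sets (matR, orfX, ccb452, nad6 and 257338_s_at of nad5) carry the s suffix, which marks probes shared by several transcripts.

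Values below are log2 signals after quantile normalization unless a deposited signal is named. Probe sets differ in brightness for the same amount of RNA, so brightness was used here only to choose which members are shown array by array, and says nothing of RNA amounts between genes. A filter on low signals required a mean above 5.77, which was the 40th percentile of all probe sets. It kept 8 of the 23 members: nad4, nad9, 257321_at of nad1, 257338_s_at of nad5, cox1, ccb382, ccb452 and orfX. The other 15 were not tested in the main analysis. The highest of 27 Bacillus control probe sets, whose targets are absent from roots, gave a bound for each array between 3.29 and 4.74. Below that bound lay 257337_at of nad5 on all 12 arrays, nad2 on 11, 257327_at of nad1 on 10, nad7 on 8 and ccb203 on 5. So did nad4L and 257324_at of nad1 on 3 each, matR and nad6 on 2 each, and 257323_at and 257329_at of nad1 on 1 each.

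Of the complex I genes, nad4, a core membrane subunit, had the highest mean over the 12 arrays and, among the tested probe sets of the class, the widest range of group means. Its values were 7.59 and 7.24 in P-S1500, 6.99 and 7.68 in P-S15, 7.94 and 8.13 in slim1-1-S1500, 8.23 and 8.24 in slim1-1-S15, 7.16 and 8.14 in slim1-2-S1500, and 8.20 and 8.47 in slim1-2-S15. On S15, every array of either slim1 line lay above both P arrays, and on S1500 both slim1-1 arrays did, whereas the slim1-2-S1500 arrays fell on either side. On the log2 scale the difference from P on S15 was 0.90 ± 0.27 (SE) in slim1-1, with an adjusted p of 0.137, and 0.99 ± 0.27 in slim1-2, with an adjusted p of 0.0914. The latter, with a 95% interval from 0.42 to 1.56, was the lowest adjusted p of a member in the 8 directional comparisons. The P response to low sulfate was −0.08 ± 0.27 and that of slim1-2 was 0.68 ± 0.27, with adjusted p of 0.934 and 0.234. The latter was 0.19 without slim1-2-S1500 replicate 1 and 1.18 (adjusted p = 0.0211) without replicate 2.

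The nad4 comparisons on S15 share the same P arrays and rest on an estimate of spread that includes slim1-2-S1500, where the replicates differed by 0.98. Without slim1-2-S1500 replicate 1 the differences were 0.90 and 0.99 with adjusted p of 0.0340 and 0.0218, and without replicate 2 the adjusted p were 0.0346 and 0.0217. The sizes hardly moved, and the call changed. With P-S15 replicate 1 and slim1-2-S1500 replicate 1 both left out, the differences on S15 fell to 0.55 and 0.65 on the log2 scale and neither was called. With both second replicates left out instead, they were 1.24 (adjusted p = 0.00426) and 1.34 (adjusted p = 0.00246), both called.

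**Figure D1:**
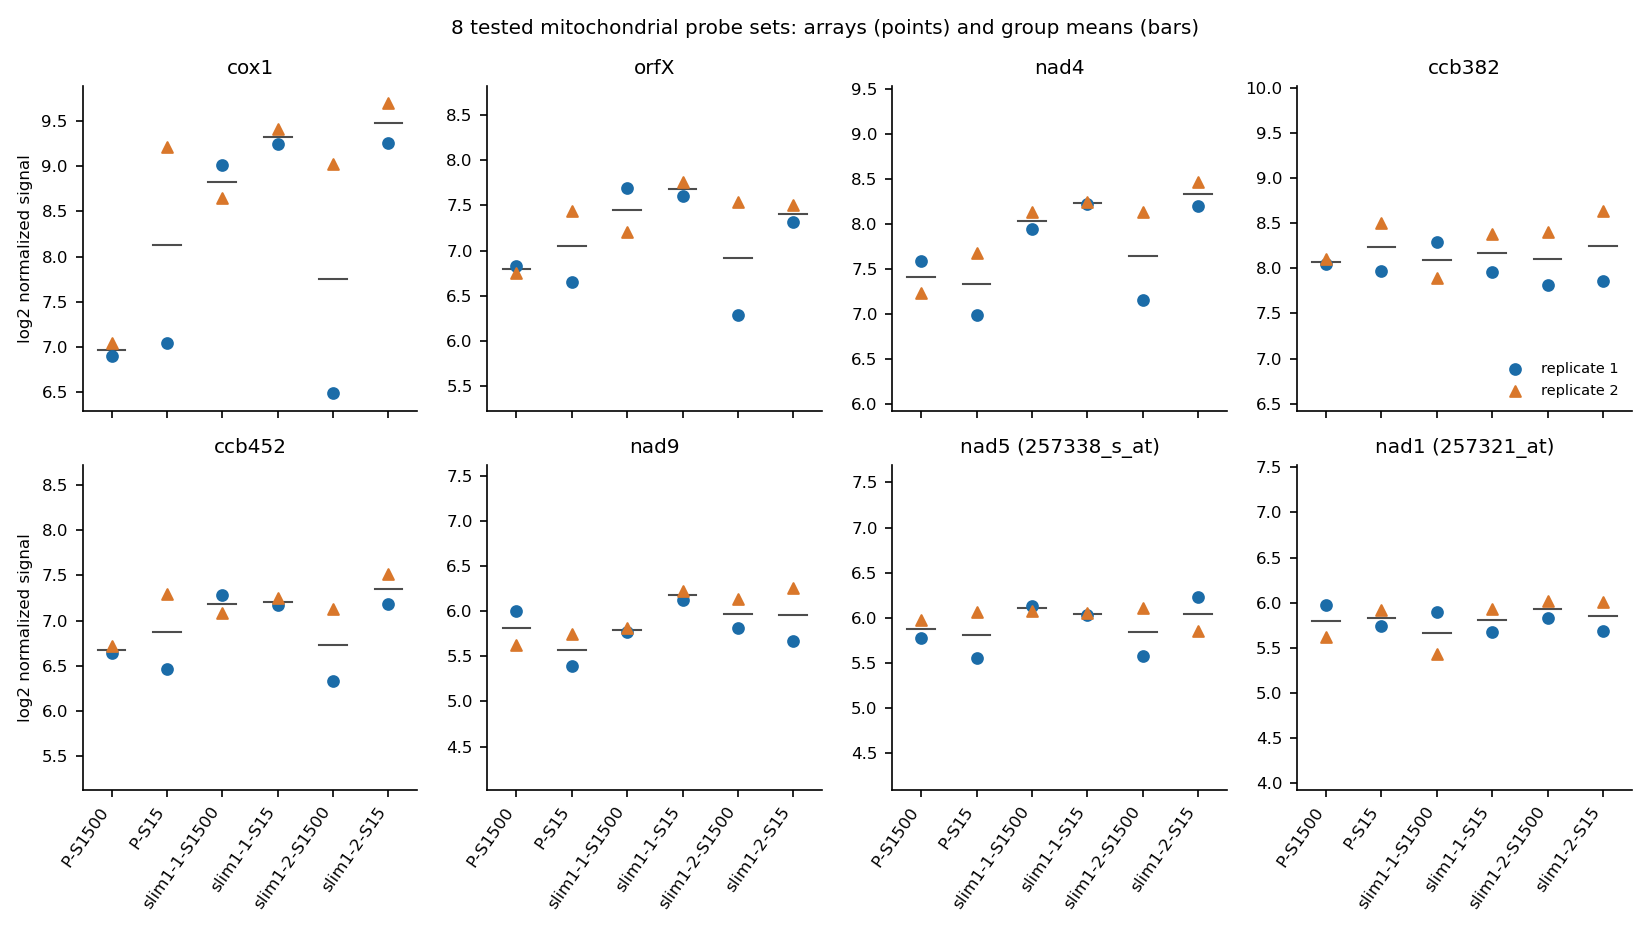
Log2 normalized signal of the 8 tested mitochondrial probe sets in the 6 groups of line and medium; points are arrays, bars are group means (n = 2), and each panel spans the same number of log2 units. In cox1, nad4, orfX and ccb452, the replicates of P-S15 and of slim1-2-S1500 lie far apart, while the other groups are closer together.

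The other complex I members were dimmer or steadier. The matrix arm subunit gene nad9 ran from 5.39 to 6.25 over the 12 arrays with a median of 5.81. Its largest difference was 0.61 ± 0.23 in slim1-1 against P on S15, with an adjusted p of 0.305. The second probe set of nad5, 257338_s_at, ran from 5.56 to 6.23, and its differences lay between −0.06 and 0.23 in the 8 comparisons. The untested nad4L, nad6 and nad7 had medians of 4.75, 4.64 and 3.99. The lowest mean of the class was that of nad2, at 0.94 and 4.50 in P-S1500, 4.11 and 3.18 in P-S15, 1.83 and 0.58 in slim1-1-S1500, 0.03 and 2.95 in slim1-1-S15, 2.12 and 3.52 in slim1-2-S1500, and 0.58 and 1.92 in slim1-2-S15. As it lay below the control bound on 11 arrays, no change can be read from it.

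The 7 probe sets of nad1, whose messenger is joined from separately transcribed pieces, did not share 1 pattern. The brightest, 257321_at, read 5.97 and 5.62 in P-S1500, 5.74 and 5.92 in P-S15, 5.89 and 5.43 in slim1-1-S1500, 5.68 and 5.93 in slim1-1-S15, 5.83 and 6.02 in slim1-2-S1500, and 5.69 and 6.01 in slim1-2-S15. Every group overlapped with P-S1500, and no difference exceeded 0.15 ± 0.23. The next, 257322_at, ran only from 5.22 to 5.65, and 257325_at from 4.75 to 5.68. In contrast, 257323_at ran from 3.96 to 5.96 and 257329_at from 3.21 to 5.61. The dimmest, 257327_at, ran from 1.84 to 4.60. The untested 257324_at fell to 1.83 and 3.28 in slim1-1-S1500 and to 2.15 in slim1-2-S1500 replicate 2, all below the control bound. Its group means ran from 2.56 in slim1-1-S1500 to 5.33 in P-S1500. Which stretch of nad1 each probe set reads was not analysed here.

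**Figure D2:**
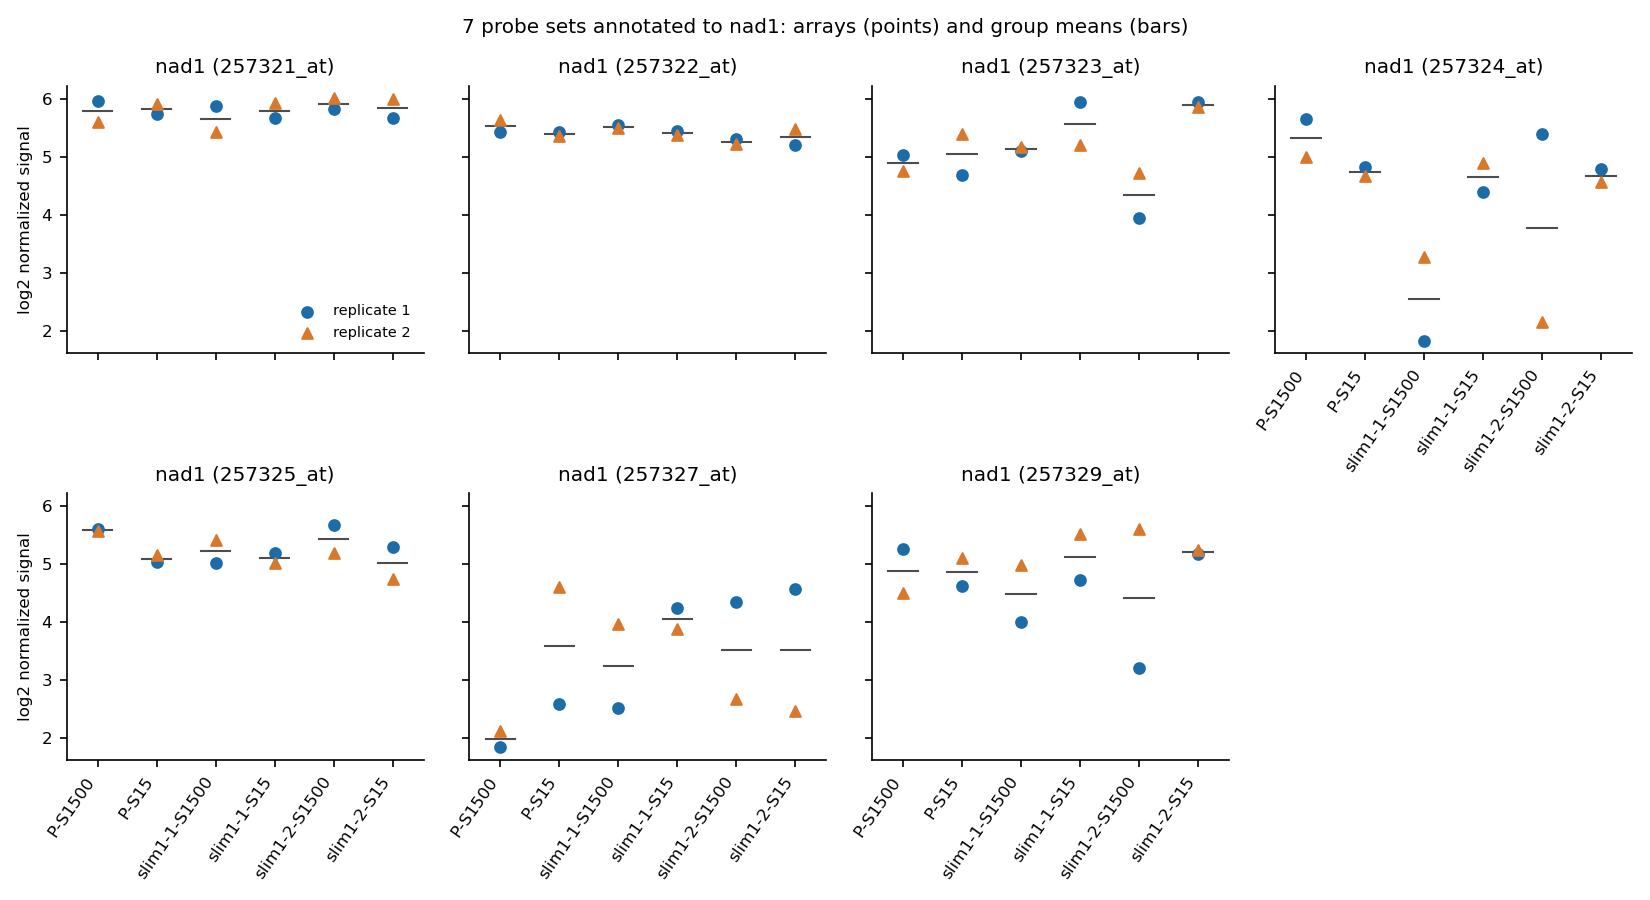
Log2 normalized signal of the 7 probe sets annotated to nad1 by group; points are arrays and bars are group means (n = 2). The probe set 257321_at stays between 5.43 and 6.02, whereas 257324_at and 257327_at reach below 2 on single arrays.

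In complex IV, cox1, the catalytic subunit of the oxidase, had the widest array range, group-mean range and within-group SD of the 8 tested members. Some untested dim members, such as nad2, ranged more widely. Its deposited signals were 107.1 and 96.3 in P-S1500, 115.9 and 654.2 in P-S15, 486 and 457.4 in slim1-1-S1500, 553.6 and 782.5 in slim1-1-S15, 70.9 and 510.2 in slim1-2-S1500, and 587.9 and 1508 in slim1-2-S15. After normalization they became 6.89 and 7.04, 7.04 and 9.22, 9.01 and 8.65, 9.24 and 9.41, 6.48 and 9.02, and 9.26 and 9.70 in the same order. Both P-S1500 arrays were low, all slim1-1 and slim1-2-S15 arrays were high, and P-S15 and slim1-2-S1500 each had 1 low and 1 high array.

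On that spread no cox1 difference was called. The largest was slim1-1 against P on S1500, at 1.86 ± 0.65 with a 95% interval from 0.46 to 3.26. Its adjusted p was 0.326, and the groups did not overlap. Replicate 2 minus replicate 1 was 0.15 in P-S1500 and −0.36 in slim1-1-S1500. The SE also includes the spread of P-S15 and slim1-2-S1500, which do not enter this difference. Across 22 alternative settings the difference ran from 1.68 to 2.21. The slim1-2 response to low sulfate was 1.73 ± 0.65 (adjusted p = 0.222), and the P response 1.16 ± 0.65 (adjusted p = 0.438). The slim1-1 response was 0.50 ± 0.65, also not called. The mean slim1 response minus the P response was −0.05 with a 95% interval from −1.77 to 1.67, which covers both signs. Without normalization between arrays, cox1 was called in the slim1-2 response (2.31, adjusted p = 6.6e-06), in slim1-2 against P on S15 (1.77, adjusted p = 0.0119) and in slim1-1 against P on S1500 (2.21, adjusted p = 7.7e-05). On that scale the medians of all tested probe sets also shifted, by 0.61, 0.47 and 0.34. The SE of cox1 there was 0.40, against 0.65 in the main fit, and nearly that of nad4 (0.40), orfX (0.41) and ccb452 (0.42). These p-values thus rest on a spread shared between probe sets more than on the discordant cox1 replicates. The main SE of cox1 was also drawn towards a shared spread, as its within-group SD was 0.98. Its main intervals are therefore narrower than its own replicates alone would give.

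The cox1 differences that involve P-S15 or slim1-2-S1500 depended on which array of the discordant pairs was kept. With the first replicates of P-S15 and slim1-2-S1500 left out, the P response was 2.25 (adjusted p = 2.1e-05) and the difference of response −1.77 (adjusted p = 0.00318). With the second replicates left out, the P response was 0.08 and the difference of response 1.67 (adjusted p = 0.00542), the opposite sign. Between the same settings, the slim1-2 response to low sulfate moved from 0.45 to 2.99, and without slim1-2-S1500 replicate 2 alone it was called (adjusted p = 0.0141). The paired settings leave 1 array in each of the affected groups, which is assumed to vary like the other groups, and were chosen after the values were seen.

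The other oxidase gene, cox2, encodes the subunit that receives electrons from cytochrome c and was not tested. It read 4.54 and 4.97 in P-S1500, 4.60 and 4.90 in P-S15, 4.90 and 4.75 in slim1-1-S1500, 4.74 and 4.60 in slim1-1-S15, 4.84 and 5.22 in slim1-2-S1500, and 4.98 and 4.51 in slim1-2-S15. Only slim1-1-S15 lay clear of other groups, just below slim1-1-S1500 and slim1-2-S1500, and the 12 arrays spanned 0.71 against 3.21 for cox1. Its deposited signals ran from 20.9 to 42.8.

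Among the cytochrome c maturation genes, ccb382 had the highest mean. It read 8.04 and 8.10 in P-S1500, 7.97 and 8.51 in P-S15, 8.29 and 7.89 in slim1-1-S1500, 7.96 and 8.38 in slim1-1-S15, 7.81 and 8.40 in slim1-2-S1500, and 7.86 and 8.63 in slim1-2-S15. Every group overlapped with every other, and group means spanned 0.17. Its 8 differences lay between −0.07 and 0.16, each with an SE of 0.26 or 0.31.

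Among the tested members of this class, ccb452 had the wider range of group means. It read 6.64 and 6.71 in P-S1500, 6.47 and 7.29 in P-S15, 7.29 and 7.09 in slim1-1-S1500, 7.17 and 7.25 in slim1-1-S15, 6.33 and 7.13 in slim1-2-S1500, and 7.19 and 7.52 in slim1-2-S15. Low and high arrays fell in the same places as for cox1. The slim1-2 response was 0.62 ± 0.26, with an unadjusted p of 0.0315 and an adjusted p of 0.281. It was 0.22 without slim1-2-S1500 replicate 1 and 1.02 (adjusted p = 0.0737) without replicate 2, and it was called (1.02, adjusted p = 0.0131) with P-S15 replicate 2 left out as well. The untested ccb206 ran from 5.23 to 5.90, and was above the control bound on all 12 arrays. The dimmest of the class, ccb203, read 4.22 and 4.74 in P-S1500, 2.77 and 3.67 in P-S15, 2.57 and 4.32 in slim1-1-S1500, 4.11 and 2.76 in slim1-1-S15, 3.68 and 2.69 in slim1-2-S1500, and 5.09 and 4.58 in slim1-2-S15. Of these arrays, 5 lay below the control bound.

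The protein transport gene orfX read 6.83 and 6.75 in P-S1500, 6.65 and 7.44 in P-S15, 7.69 and 7.20 in slim1-1-S1500, 7.60 and 7.76 in slim1-1-S15, 6.29 and 7.54 in slim1-2-S1500, and 7.31 and 7.50 in slim1-2-S15. Again both P-S1500 arrays and the first arrays of P-S15 and slim1-2-S1500 were the low ones. Its largest difference was 0.65 ± 0.32, in slim1-1 against P on S1500, with an adjusted p of 0.527. Its slim1-2 response of 0.50 was −0.13 without slim1-2-S1500 replicate 1 and 1.12 (adjusted p = 0.0554) without replicate 2. The maturase gene matR was untested. It read 4.46 and 4.98 in P-S1500, 5.08 and 5.15 in P-S15, 3.76 and 4.64 in slim1-1-S1500, 4.45 and 4.98 in slim1-1-S15, 4.85 and 2.39 in slim1-2-S1500, and 4.64 and 4.67 in slim1-2-S15. In slim1-2-S1500 its low array was replicate 2, unlike orfX.

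Each comparison was read against the share of all 13647 tested probe sets that it called. For S15 against S1500 these shares were 3.84% in P, 2.2% in slim1-1 and 3.05% in slim1-2, and 0 of the 8 tested members were called in limma in each. At an unadjusted p under 0.05 the members numbered 0, 0 and 3, the 3 being cox1, nad4 and ccb452 in slim1-2, beside 15.2%, 11% and 14.1% of all tested probe sets. Against P on S15 the shares were 1.6% in slim1-1 and 1.55% in slim1-2, with 0 members called and 2 and 1 at an unadjusted p under 0.05, beside 11.7% and 12.8% of all. Leaving out slim1-2-S1500 replicate 2 raised the count of called members in the slim1-2 response. Leaving out either array of that group raised the count in both comparisons on S15. The last section gives these counts beside the share of all tested probe sets. Against P on S1500 the shares were 0.432% in slim1-1 and 2.21% in slim1-2, with 0 members called. At an unadjusted p under 0.05 the members numbered 2 and 0, beside 10.0% and 14.9% of all.

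For the difference of response, the mean slim1 response minus that of P, 0.938% of all tested probe sets were called and 0 members, with 0 at an unadjusted p under 0.05 beside 9.14% of all. The moderated F-test over the 6 groups called 8.26% of all tested probe sets and 0 members, with nad4 (adjusted p = 0.0722) and cox1 (adjusted p = 0.104) at an unadjusted p under 0.05, beside 21.7% of all. Leaving out an array of P-S15 or slim1-2-S1500 raised the F-test count of members. The last section gives those counts beside the share of all tested probe sets. With 8 members tested and shares of this size, a count of 0 does not set the members apart. Testing all 23 members with no filter also called 0 in limma in all 9 comparisons.

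**Figure D3:**
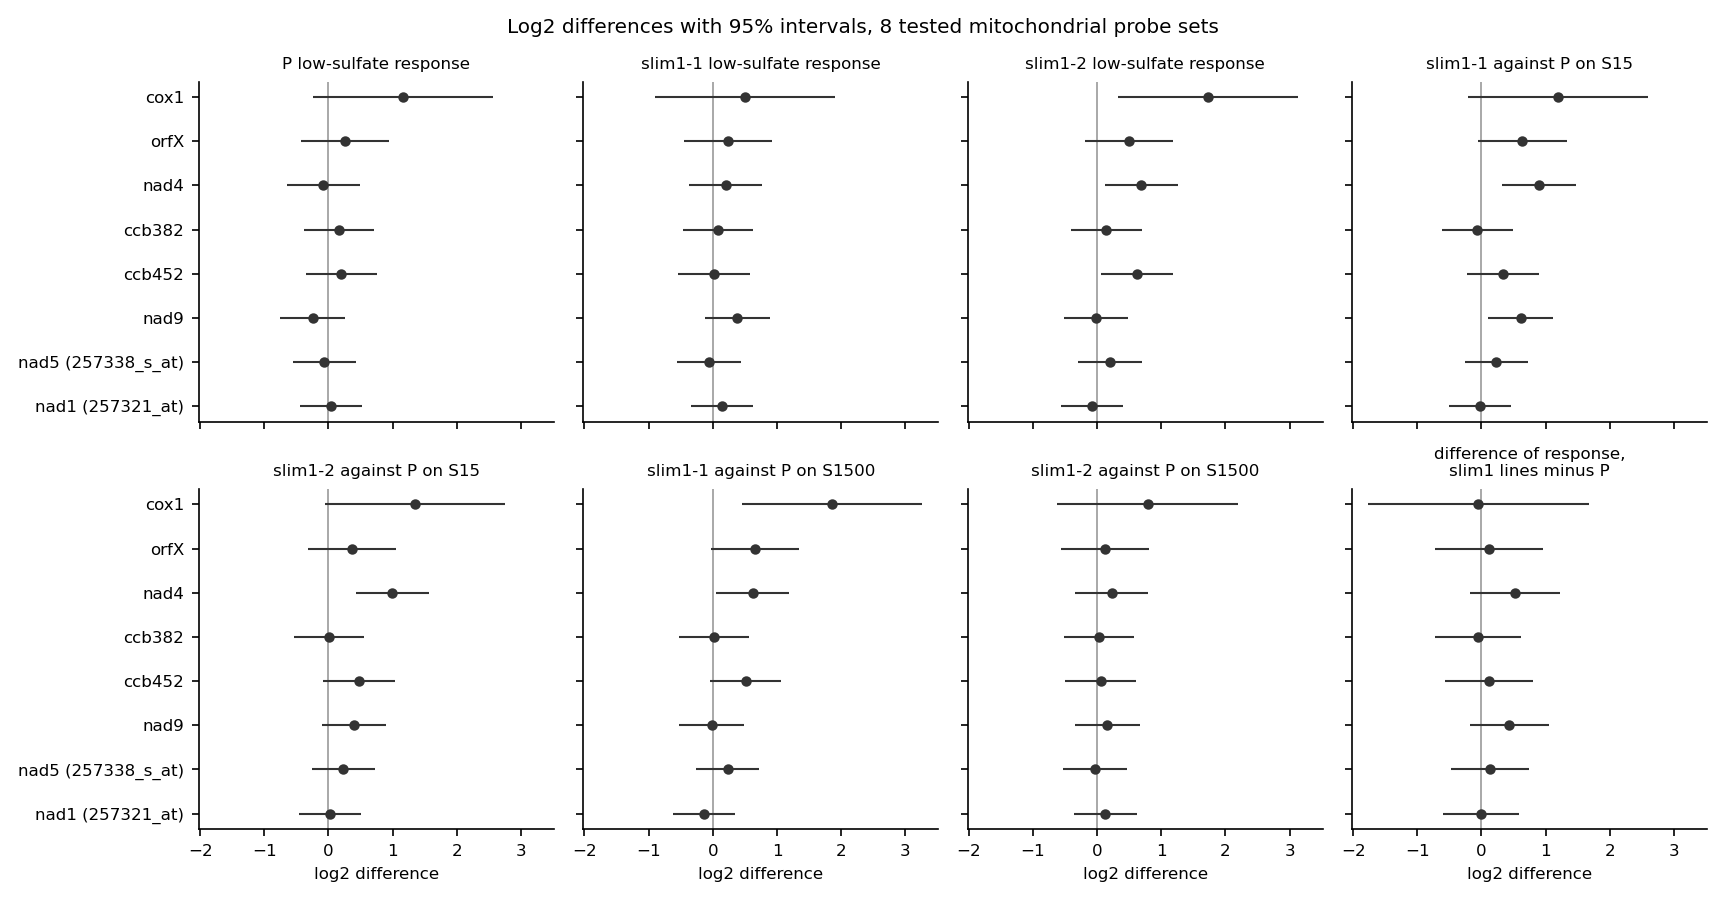
Log2 differences of the 8 tested mitochondrial probe sets in the 8 directional comparisons, with 95% intervals from the fit. No interval belongs to a called difference, and the intervals of cox1 are the widest in every panel.

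Over all 23 members, the median change to low sulfate was 0.09 in P, 0.24 in slim1-1 and 0.17 in slim1-2, beside medians of 0.00 to 0.01 over all probe sets. Of the 23 members, 13, 17 and 16 had a positive change in these lines. Against P, the member medians were 0.22 for slim1-1 and 0.09 for slim1-2 on S15, and −0.003 and 0.05 on S1500. Over the 8 tested members alone they were 0.47 and 0.38 on S15 and 0.37 and 0.13 on S1500, and the median responses to low sulfate were 0.10 in P, 0.17 in slim1-1 and 0.35 in slim1-2. Of these members 15 are dim, and the medians moved with the discordant arrays. Without P-S15 replicate 2 the P median was −0.14, and without slim1-2-S1500 replicate 1 the slim1-2 median was −0.02.

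What the brighter members shared was their spread between replicates. The within-group SD pooled over the 6 groups was 0.98 for cox1, a value at the 99.99th percentile of the 13647 tested probe sets. It was 0.46 for orfX, 0.37 for nad4, 0.36 for ccb382 and 0.35 for ccb452, at the 99.4th, 98.5th, 98.2nd and 97.9th percentiles. Over all tested probe sets the median was 0.13 and the 90th percentile 0.25. Of the 8 tested members, 6 lay above that 90th percentile. The tested plastid-encoded probe sets ran from 0.11 (petB) to 0.89 (psbZ), so a large spread was not particular to the members.

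**Figure D4:**
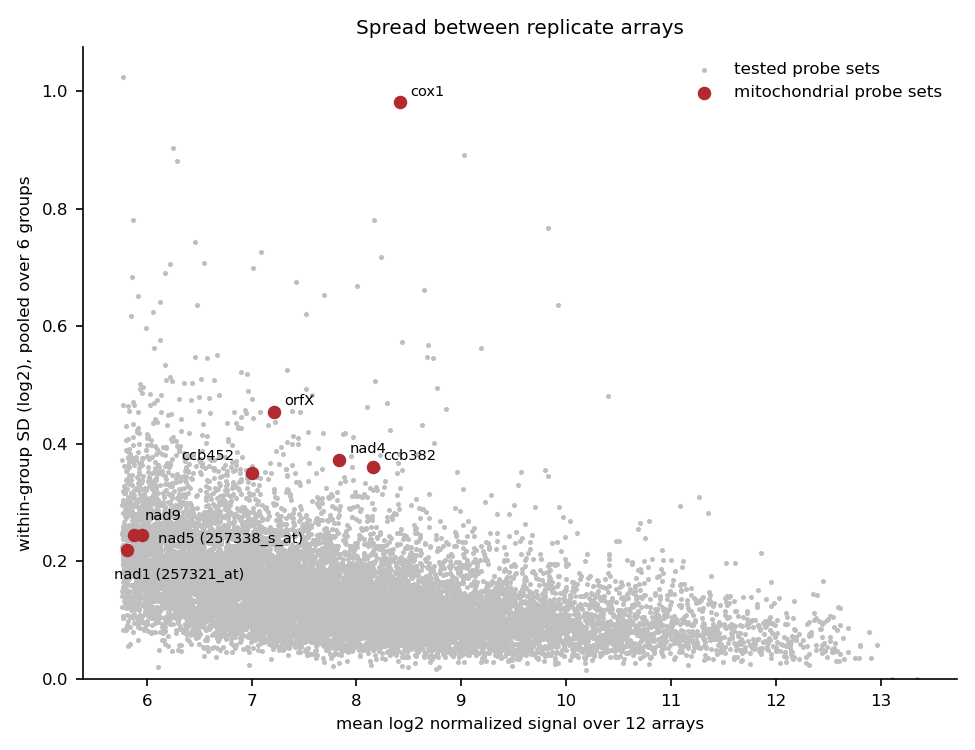
Within-group SD on the log2 scale, pooled over the 6 groups, against the mean log2 normalized signal for all tested probe sets (grey) and the 8 tested mitochondrial probe sets (red). The mitochondrial points with means above 7 lie at the upper edge of the cloud, with cox1 at 0.98.

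The spread had a direction within groups. In P-S15, 8 of 8 tested members were higher in replicate 2 than in replicate 1, with a median gap of 0.61, while the median gap of all tested probe sets was −0.008. In slim1-2-S1500, 8 of 8 were higher in replicate 2, with a median gap of 0.69 against −0.002 for all. The plastid-encoded probe sets had median gaps of 0.47 and 0.45 in these groups. For the tested members the gap was 0.13 in slim1-1-S15 (8 of 8 higher in replicate 2), 0.33 in slim1-2-S15 (7 of 8), −0.28 in slim1-1-S1500 (2 of 8) and −0.01 in P-S1500 (4 of 8). Over all 23 members, 19 were higher in replicate 2 of P-S15 and 15 in replicate 2 of slim1-2-S1500, so the dimmer members did not all share the direction.

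The 4 lowest arrays of cox1 were both of P-S1500, P-S15 replicate 1 and slim1-2-S1500 replicate 1. They were also the lowest of nad4, orfX and ccb452. With cox1, from which the set was taken, 4 of the 8 tested members and 4 of all 23 shared it. The same set of lowest arrays was found for 135 of all 13647 tested probe sets, or 0.989%. Of the 55 tested plastid-encoded probe sets, 22 (40%) shared it, as did 3 of the 8 tested probe sets annotated to a mitochondrial and another gene. One of these, 265228_s_at of the ATP synthase gene atp1 and its chromosome 2 locus, read 7.15 and 7.02 in P-S1500, 6.97 and 8.68 in P-S15, 8.68 and 8.31 in slim1-1-S1500, 9.15 and 8.93 in slim1-1-S15, 6.66 and 8.67 in slim1-2-S1500, and 8.75 and 9.11 in slim1-2-S15. Its low and high arrays were those of cox1.

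Several array-wide values moved with these members. The 4 arrays had the lowest median deposited signals of the 12, from 65.65 to 82.8, whereas the other 8 ran from 83.65 to 174.95. The median of the 69 plastid-encoded probe sets was 7.09 to 7.28 on them and 7.54 to 8.04 on the others. The 5S ribosomal RNA control probe set read 6.84 to 7.73 on them and 3.51 to 5.96 on the others after normalization. As deposited it read 91.3 to 166.5 on them and 119.8 on slim1-2-S15 replicate 2, so the separation held only on the normalized scale. The 25S ribosomal RNA control read 4.58 to 5.26 on them and 4.45 to 5.84 on the others, overlapping. The 3′ minus 5′ difference of the actin control was 0.27 to 0.42 on them and 0.10 to 0.56 on the others, also overlapping. The part of brightness and of these controls in the cox1, nad4, orfX and ccb452 values was not tested.

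**Figure D5:**
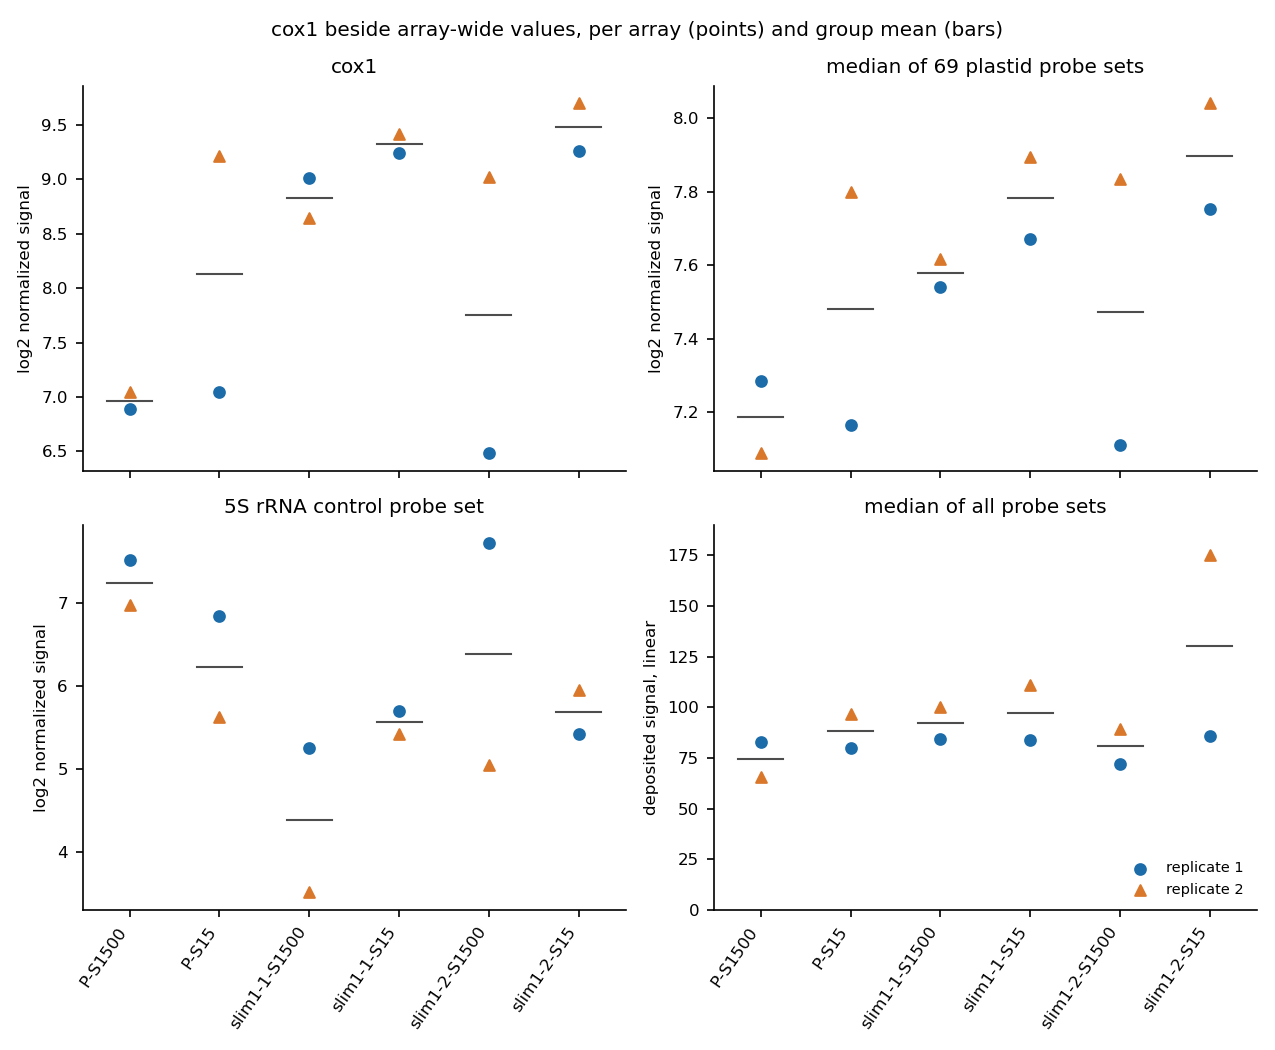
Values per array (points) and group means (bars, n = 2) of cox1, the median of 69 plastid-encoded probe sets, the 5S ribosomal RNA control probe set (all log2 normalized) and the median deposited signal of the array (linear). The arrays where cox1 lies near 7 or below have the lowest plastid medians, from 7.09 to 7.28, and the highest normalized 5S control values, from 6.84 to 7.73.

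Tissue markers were read on the same arrays. The root markers PYK10, a beta-glucosidase of roots, and EXPA7 and EXPA18, root hair expansins, lay above the control bound on 12 of 12 arrays. So did the leaf photosynthesis genes RCA, LHCB4.1 and LHCB4.2. The root and leaf lists each held 9 genes, of which 3 were named. Of the 3 leaf genes, 2 were called lower in slim1-2 on S15 than on S1500 and in each slim1 line than in P on S15. On S15 against S1500, RCA was also called lower in P (−0.43) and LHCB4.2 in slim1-1 (−0.70). In slim1-1 against P on S1500, 2 of the leaf genes were also lower, beside positive nad4 and cox1 differences that were not called. The summed linear signal of the 3 leaf genes was 1310 to 1499 in P-S1500, 1108 to 1118 in P-S15, 791 to 843 in slim1-1-S1500, 704 to 797 in slim1-1-S15, 1334 to 1352 in slim1-2-S1500 and 804 to 845 in slim1-2-S15. The replicates of P-S15 and of slim1-2-S1500, which stood apart for the mitochondrial members, were thus close in these sums. The sum of the 3 root markers ran from 6924 to 8065 over the 12 arrays. It was mostly PYK10, at 12.66 to 12.90 on the log2 scale, against 7.72 to 8.79 for EXPA7 and 7.55 to 8.53 for EXPA18. Changes of the expansins therefore hardly show in it. Taken singly, EXPA7 and EXPA18 were called higher in P on S15 than on S1500, by 0.76 and 0.78. Both were called lower in slim1-1 than in P on S15, with differences of −0.91 and −0.89, where nad4 differed by 0.90, and both were lower in the difference of response. EXPA18 was higher in slim1-2 than in P on S1500, by 0.59. The part of tissue makeup in the member values was not tested.

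Nuclear genes of the mitochondrion were looked up by symbol from short lists, and most listed symbols matched no probe set annotated to 1 gene. Nuclear genes outside the lists were not looked up. Of 29 listed genes of the respiratory chain and alternative respiration, 11 were named by 12 probe sets and 9 of these were tested. Of these 9, 1 rose in P on low sulfate, where 3.84% of all tested probe sets were called. It was CYTC-1, which encodes cytochrome c, by 0.30 (adjusted p = 0.0308). None was called in the other 7 directional comparisons. The CYTC-2 difference in P was 0.37 with an adjusted p of 0.249. Of the 29 genes listed for mitochondrial transcription and RNA processing, 2 were named, 1 probe set was tested and 0 were called. Of 15 genes listed for mitochondrial dysfunction, 1 was named: NDB2, an alternative NADH dehydrogenase that is also on the respiratory list. It read 0.25, 0.31 and 0.51 in the responses of P, slim1-1 and slim1-2, with an adjusted p of 0.127 in slim1-2.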

How the data were processed

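RNA was measured on 12 one-colour Affymetrix arrays. Each array has 1 deposited intensity per probe set, on a linear scale. The submitters' processing notes name MAS5 as the authors' tool for these intensities, and neither its version nor its scaling target is given in the sources used here. The labels do not name the primer used to copy RNA, so how fully RNA without a poly(A) tail was copied is unknown.

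Signals under 1 were set to 1, log2-transformed and quantile-normalized, because array log2 medians ran from 6.04 to 7.45. Of 22746 probe sets without 64 controls, 13647 passed the filter. A mean per group was fitted with limma 3.58.1 in R 4.3.3 (eBayes with an intensity trend; degrees of freedom were 6 residual and 7.76 prior). Two-sided p-values were Benjamini-Hochberg adjusted over all tested probe sets and called at 0.05. The fit was also run on simulated arrays with independent noise of equal spread in all groups. Those arrays hold no discordant replicates shared between probe sets, so the run does not cover that feature of the members.

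The members, lists and alternatives were chosen with earlier results of these data known. Arrays were grouped by title. Values per array are given for the brightest, the dimmest and, among those tested, the most variable member of each role; the discordant pairs, nad1 and atp1 were added after values were seen. The annotation gives 13513 probe sets 1 gene, 503 several, and does not list 8794. The assembly behind the array's annotation is not named, so no coordinates are given. Alternatives covered normalization, floor, filter, trend, replicate block and leaving out arrays.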

Additional observations from a re-analysis of the deposited data

How the results depend on the processing

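Across 22 alternative settings the number of called members stayed at 0 in 173 of 198 recomputed counts, and 25 were above 0; the slim1-1 response stayed at 0 in all. Median centring, a pseudocount of 16, a floor of 64, no filter, the 60th percentile and no intensity trend left every count at 0. The floor of 64 lies above the median deposited signals of nad9 (57.3) and 257321_at of nad1 (52.65), and flattens most of their values. The 60th percentile filter tests fewer probe sets. Counts of 0 under these settings therefore say little of the dimmer members. Without normalization, which shifts the median of all tested probe sets by up to 0.61 (slim1-2 response), 1 member was called in the slim1-2 response, in slim1-2 against P on S15 and in slim1-1 against P on S1500, each time cox1, and 2 in the F-test, beside 0.0806% to 1.06% of all tested probe sets. The replicate block gave 2 in the F-test (nad4 and cox1) and changed no other count; the labels do not say that a number pairs arrays, and replicate differences of 2 groups correlated at −0.118 to 0.230.

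Leaving out 1 array at a time gave 0 to 2 called members in the slim1-2 response (2 without slim1-2-S1500 replicate 2), 0 to 1 in slim1-1 against P on S15 and in slim1-2 against P on S15 (1 without either slim1-2-S1500 array, nad4 in each case), and 0 to 3 in the F-test. In the F-test these were 1 without P-S15 replicate 1, 2 without P-S15 replicate 2, 2 without slim1-2-S1500 replicate 1 and 3 without its replicate 2. Beside these counts, 1.62% to 1.97% of all tested probe sets were called in the directional comparisons and 6.23% to 7.66% in the F-test.

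Further settings, chosen after seeing the data, left out arrays of P-S15 and slim1-2-S1500 together. Without their first replicates, 1 member (cox1) was called in the P response, slim1-1 against P on S1500, slim1-2 against P on S1500 and the difference of response, and 3 in the F-test, beside 0.579% to 2.88% of all tested probe sets and 6.21% in the F-test. Without their second replicates, 4 were called in the slim1-2 response, 3 in slim1-1 against P on S15, 3 in slim1-2 against P on S15, 1 in slim1-1 against P on S1500, 2 in the difference of response and 4 in the F-test, beside 0.557% to 1.98% of all and 6.19% in the F-test; the cox1 difference of response turned from −0.05 to 1.67. The cause of these changes was not tested. Low signal left 15 of the 23 members out of the main tests. Of the 23, 5 lay below the control bound on 5 or more arrays, and further members on 1 to 3 arrays.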
